A study of Mus musculus with 15 samples.

Results

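The comparison described here is the addition of CP690550, an inhibitor of Janus kinases that is also known as tofacitinib, to mouse fibroblasts being turned into muscle progenitors. It was set against the same treatment without the inhibitor. The 6 libraries were taken by their titles, 3 of MyoD + F/R/C + CP and 3 of MyoD + F/R/C, of 15 in the series. All 6 cultures were mouse embryonic fibroblasts (MEFs) that received synthetic MyoD mRNA in repeated transfections together with forskolin, which raises cAMP, RepSox, an inhibitor of the TGF-β receptor, and CHIR99210, an inhibitor of GSK3, and all were collected at day 10. B18R, a viral protein that binds type I interferon, was in the medium of every transfected culture during the transfections. The 3 MEF lines carried a Pax7-nGFP transgene on a mixed C57BL6 and DBA2 background, and each came from a single embryo at E13.5. The same 3 lines stand in both conditions, so libraries with the same number were paired. The dose of CP690550 was not given in the sources used here. CP libraries are those of MyoD + F/R/C + CP and F/R/C libraries those of MyoD + F/R/C, and 3 values in a row are those of lines 1, 2 and 3. The 3 libraries of MyoD + F/R/C + SP, in which the JNK inhibitor SP600125 was added instead, entered the same fit and serve as a second comparison.

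Janus kinases (JAK1, JAK2, JAK3 and TYK2) sit on the inner tails of receptors for interferons, interleukins and the cytokines that share the gp130 chain. A bound receptor brings its kinases together, they phosphorylate STAT proteins, and the STATs move to the nucleus and switch on their target genes, among them inhibitors that close the loop. STAT2 and IRF9 take part in the type I interferon response, and STAT3 carries the response to gp130 cytokines such as IL-6, oncostatin M and LIF. In skeletal muscle these pathways are known from inflammation after injury and from the control of muscle stem cells, the satellite cells, which are defined by the transcription factor Pax7.

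The 9 libraries with F/R/C held 29393872 to 41885769 estimated counts each. Mitochondrial genes took 2.52 to 3.64% of the counts in the CP libraries and 2.98 to 3.10% in the F/R/C libraries. Myod1 was at 4040.4, 1136 and 992 CPM in the CP libraries, against 2887, 858 and 845 CPM in the F/R/C libraries; the transfected mRNA and the cell's own transcript were not told apart here. Line 1 expressed the Y-linked gene Ddx3y and lines 2 and 3 expressed Xist in both conditions. Fibroblast and muscle genes were present in both groups. The 30 tested genes of the fibroblast and matrix list summed to 44286 to 48785 CPM in the CP libraries and 34435 to 52005 CPM in the F/R/C libraries, and the 45 tested genes of muscle differentiation to 13270 to 18832 CPM in the CP libraries and 13533 to 21216 CPM in the F/R/C libraries. One CP library stood apart in heat shock genes. Hspa1a was at 15.9, 386 and 15.6 CPM in the CP libraries, against 13.2, 37.4 and 13.2 CPM in the F/R/C libraries, so that the CP library of line 2 was far above the other 5. Counts are also given without that library, and the part of this difference in the results was not tested. In bulk RNA, more cells of a type and more RNA per cell cannot be told apart, and this holds for every difference below.

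CP690550 changed a limited set of genes, and more of them fell than rose. Levels are in CPM, the count of a gene scaled to a common library size after TMM normalization, log2FC is the log2 fold change of CP over F/R/C with its standard error, and a gene was called when edgeR's quasi-likelihood test gave an adjusted p of at most 0.05 and the log2FC was over 0.5 in size. Of 18460 genes tested, 239 were called higher (1.29%) and 351 lower (1.90%), while 3187 had an unadjusted p under 0.05. The median log2FC of all genes was -0.0049. Of the called genes, 238 of the 239 higher and 351 of the 351 lower ones moved the same way in all 3 lines, as did 41.7% of all genes tested, and the paired test that made the calls favours such genes. The CP and F/R/C libraries did not overlap in 17.6% of all genes tested, the background for uncalled genes said below to have no overlap. Among called genes this held for 185 of the 239 higher and 311 of the 351 lower ones. No overlap is thus usual for a called gene and is not added support for its call. The genes named for the largest changes were taken only from those without overlap. By size, 95 rose and 121 fell by more than 1 on the log2 scale. In the F/R/C libraries the median level was 50.4 CPM for genes that fell and 17.8 CPM for genes that rose. Over all genes tested it was 13.9 CPM. These levels are 1 side of the comparison, where genes called lower tend to be high and genes called higher low. They do not show which genes were the more abundant.

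**Figure D1:**
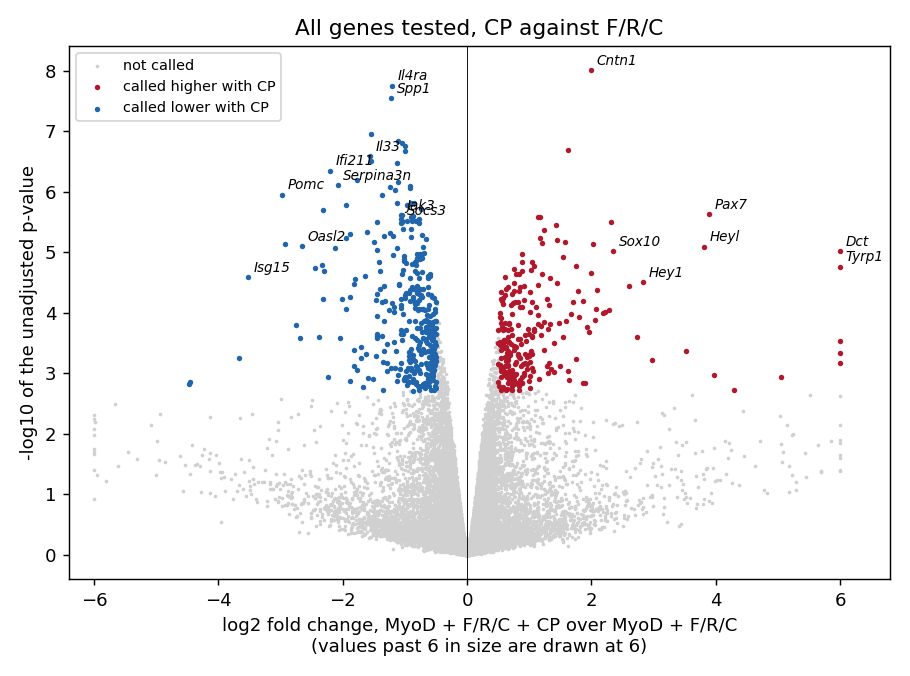
Each point is 1 of 18460 genes, with its log2 fold change of CP over F/R/C on the x axis and -log10 of its unadjusted p-value on the y axis. The 239 genes called higher are red and the 351 called lower are blue, and Cntn1, Il4ra and Spp1 lie at the top.

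These counts rested on the pairing and on the number of libraries. Without the MEF line as a block they were 41 higher and 111 lower. With the 6 libraries of MEFs and of MyoD alone in the fit and the block kept they were 10 and 27. Leaving out MEF line 2 altogether left 18 higher and 57 lower, and leaving out line 1 left 149 and 233. Without a single library the counts were 132 higher and 228 lower (CP library 1), 79 and 154 (CP library 2), 130 and 201 (CP library 3), and 99 and 192 (F/R/C library 2). All 590 called genes kept their direction in the fits without a single library and in the fits without line 2 or line 3, and without line 1 all but 1 did.

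Some receptors and kinases of the pathway were themselves called lower with CP. Among 34 tested cytokine receptors that signal through JAKs, 4 fell, none rose, and the median log2FC was -0.41. Il4ra, the IL-4 receptor chain, had the smallest p of all genes that fell, with 76.4, 113 and 128 CPM in the CP libraries, against 189, 251 and 286 CPM in the F/R/C libraries (log2FC -1.21 ± 0.08, edgeR adjusted p = 0.00016). Osmr, the receptor of oncostatin M, was at 99.4, 139 and 148 CPM in the CP libraries, against 215, 287 and 291 CPM in the F/R/C libraries (log2FC -1.04 ± 0.11, edgeR adjusted p = 0.0013). In both genes all 3 CP libraries lay below the lowest F/R/C library. Il13ra1, which pairs with the IL-4 receptor, was at 14.4, 21.8 and 19.98 CPM in the CP libraries, against 55.99, 46.4 and 50.4 CPM in the F/R/C libraries (log2FC -1.44 ± 0.16, edgeR adjusted p = 0.0013). Il6st, which encodes gp130 itself, was at 281, 323 and 301 CPM in the CP libraries, against 443, 539.9 and 504 CPM in the F/R/C libraries (log2FC -0.72 ± 0.11, edgeR adjusted p = 0.0059). No CP library reached the F/R/C range in either gene. Without line 2, 3 of these 4 calls were kept, Il6st being lost, and all 4 were kept without CP library 2 or without the line as a block. The interferon receptor chains did not pass the threshold. Ifnar1 had a log2FC of -0.19, Ifnar2 of -0.49 and Ifngr1 of -0.32. Il20ra, a receptor chain for IL-20 family cytokines outside the list, was at 0.297, 1.17 and 1.18 CPM with CP and 3.54, 3.69 and 3.38 CPM without it (log2FC -2.24 ± 0.51, edgeR adjusted p = 0.037). The call of Il20ra was kept in 5 of 22 other settings.

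Of the ligands, 16 of 37 listed genes were expressed enough to be tested, and 1 of them fell. Clcf1, a gp130 cytokine, was at 10.7, 9.995 and 14.2 CPM in the CP libraries, against 14.7, 21.9 and 23.4 CPM in the F/R/C libraries (log2FC -0.78 ± 0.17, edgeR adjusted p = 0.031), a call lost without CP library 2 or line 2. Il6 had 2.603, 1.78 and 1.99 CPM with CP and 3.51, 3.13 and 5.21 CPM without it, with no overlap between the groups, but its adjusted p was 0.20 in edgeR's test. The interferon genes Ifnb1, Ifna1, Ifna2, Ifna4, Ifnl2 and Ifnl3 had 0 counts in the 3 CP libraries and 0 in the 3 F/R/C libraries, which allows up to 3 counts per group, and Ifng had 3 counts over the CP libraries and 18 over the F/R/C libraries.

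All 11 tested genes of the list of Janus kinases and STATs, which also holds Irf9, had a negative log2FC, with a median of -0.36, and 4 were called lower. Jak3, the kinase of receptors with the common γ chain, was at 21.04, 28.5 and 31.4 CPM in the CP libraries, against 42.1, 70.1 and 58.9 CPM in the F/R/C libraries (log2FC -1.06 ± 0.12, edgeR adjusted p = 0.0013). Jak2, which serves the receptors of growth hormone, erythropoietin and interferon γ, was at 50.98, 55.4 and 58.7 CPM in the CP libraries, against 92.03, 129 and 105 CPM in the F/R/C libraries (log2FC -0.98 ± 0.13, edgeR adjusted p = 0.003). The groups did not overlap in either gene. Jak1 and Tyk2 were not called. Jak1 was at 220.3, 218 and 231 CPM in the CP libraries, against 264, 263 and 259 CPM in the F/R/C libraries (log2FC -0.23, 95% interval -0.41 to -0.05, edgeR adjusted p = 0.16), and Tyk2 had a log2FC of -0.15. Stat2 was at 14.5, 18.01 and 19.03 CPM in the CP libraries, against 24.2, 42.9 and 36.9 CPM in the F/R/C libraries (log2FC -0.99 ± 0.15, edgeR adjusted p = 0.006). Irf9, its DNA-binding partner, was at 12.1, 12.03 and 15.6 CPM in the CP libraries, against 23.1, 26.8 and 31.7 CPM in the F/R/C libraries (log2FC -1.04 ± 0.15, edgeR adjusted p = 0.0037). Neither gene overlapped between the groups. Stat3 missed the threshold (log2FC -0.32, 95% interval -0.50 to -0.14, edgeR adjusted p = 0.059). Stat5a, Stat5b and Stat6 had log2FC of -0.32, -0.36 and -0.24, and none was called. Without line 2 only the call of Jak3 was kept of the 4, without the line as a block the other 3, and without CP library 2 all 4.

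Among the feedback inhibitors, 3 of 18 fell and none rose. Socs3, which STAT3 induces and which blocks gp130 receptors, was at 71.4, 79.8 and 78.1 CPM in the CP libraries, against 138, 203 and 142 CPM in the F/R/C libraries (log2FC -1.05 ± 0.12, edgeR adjusted p = 0.0013). Cish, an inhibitor induced by STAT5, was at 9.52, 13.2 and 11.3 CPM in the CP libraries, against 14.97, 26.7 and 26.9 CPM in the F/R/C libraries (log2FC -0.98 ± 0.15, edgeR adjusted p = 0.0055). Usp18, an interferon-induced inhibitor of the type I interferon receptor, was at 2.06, 1.56 and 1.96 CPM in the CP libraries, against 7.05, 5.61 and 8.85 CPM in the F/R/C libraries (log2FC -1.94 ± 0.20, edgeR adjusted p = 0.0011). All 3 genes had every CP library below every F/R/C library. Socs1 was not called (log2FC -0.53, 95% interval -0.94 to -0.13, edgeR adjusted p = 0.15). The other 14 members, among them the PIAS proteins and the tyrosine phosphatases, were not called either, and the median of the list was -0.06. The call of Cish was lost without line 2 and without the line as a block.

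**Figure D2:**
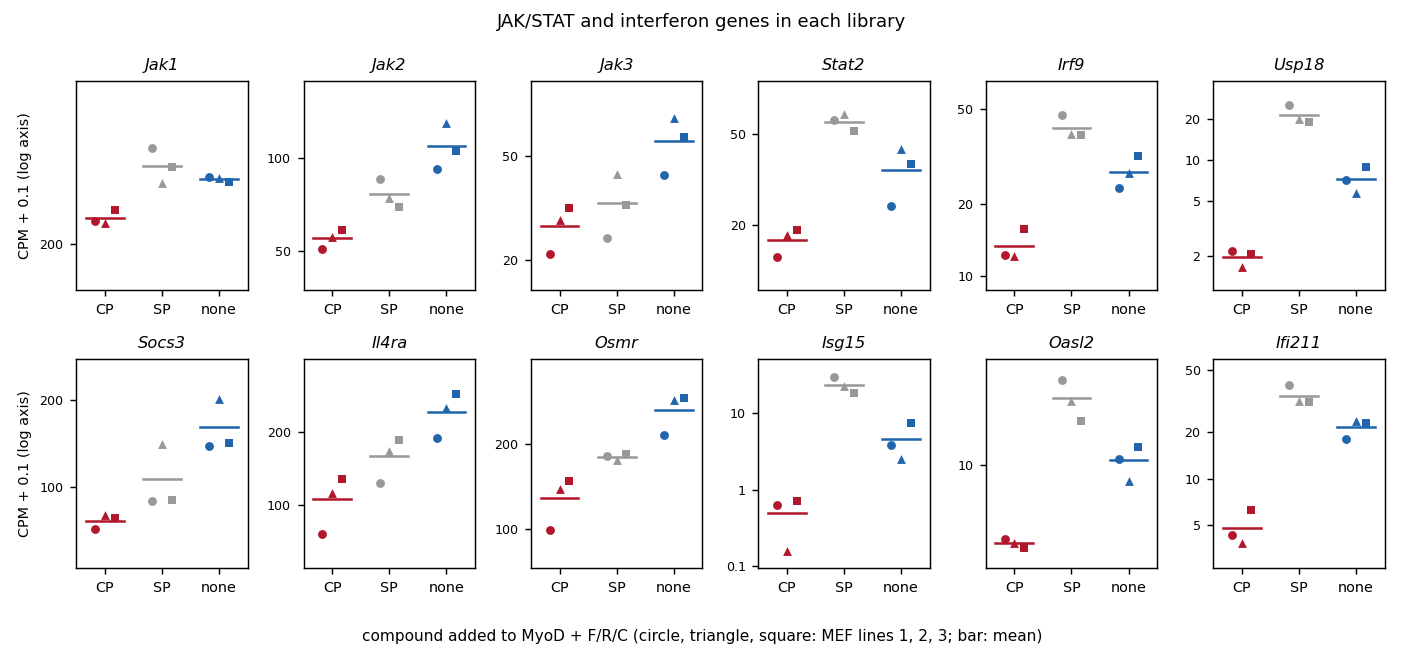
The panels show 12 genes, with CPM + 0.1 on a log axis for each library with CP, with SP or with neither added to MyoD + F/R/C (none), and a bar at the mean of 3 lines. The CP libraries lie below the libraries with neither inhibitor in all 12 genes, and for Stat2, Irf9, Usp18, Isg15, Oasl2 and Ifi211 the SP libraries lie above both other groups.

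The interferon response had the lowest median of the lists with more than 30 tested genes. Of 62 tested genes, 20 fell and none rose, and 59 had a negative log2FC, with a median of -0.96. Isg15, a ubiquitin-like protein attached to other proteins during virus infection, was at 0.5205, 0.056 and 0.607 CPM in the CP libraries, against 3.702, 2.45 and 7.49 CPM in the F/R/C libraries (log2FC -3.53 ± 0.50, edgeR adjusted p = 0.0039). Oasl2, of the oligoadenylate synthetase family, was at 1.88, 1.75 and 1.55 CPM in the CP libraries, against 11.1, 6.95 and 14.6 CPM in the F/R/C libraries (log2FC -2.65 ± 0.33, edgeR adjusted p = 0.0021). Rtp4, an interferon-induced chaperone, was at 0.595, 0.139 and 0.607 CPM in the CP libraries, against 3.4003, 2.24 and 4.08 CPM in the F/R/C libraries (log2FC -2.92 ± 0.36, edgeR adjusted p = 0.002). These were low levels in either group, and the CP libraries lay close to the detection limit for Isg15 and Rtp4. Ifit1, which binds viral RNA, was at 2.01, 1.25 and 1.48 CPM in the CP libraries, against 6.499, 4.32 and 7.96 CPM in the F/R/C libraries (log2FC -2.02 ± 0.31, edgeR adjusted p = 0.0061). Irf7, the transcription factor that amplifies the interferon response, was at 1.81, 2.98 and 1.89 CPM in the CP libraries, against 7.32, 6.98 and 8.57 CPM in the F/R/C libraries (log2FC -1.81 ± 0.26, edgeR adjusted p = 0.004). Parp14, an ADP-ribosyl transferase of the PARP family, was at 3.22, 3.84 and 3.003 CPM in the CP libraries, against 12.04, 7.71 and 8.21 CPM in the F/R/C libraries (log2FC -1.45 ± 0.22, edgeR adjusted p = 0.0056). Each of these was lower in all 3 lines, with no overlap. Lgals3bp, a secreted glycoprotein, had a log2FC of -0.72, Trim25, a ubiquitin ligase that acts on RIG-I, of -0.63, and Bst2, which tethers viruses to the cell surface, of -0.88, all called. Of the 20 calls 14 were kept without CP library 2, 12 without the line as a block and 7 without line 2, and all 20 kept their direction. Irf9, Stat2 and Usp18 are counted both here and above, and members of the Oas and Apol9 families share sequence, which makes their single values uncertain.

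The sensors of foreign nucleic acid, 16 tested genes with a median log2FC of -0.42, held 4 genes that fell and none that rose. Zbp1, a sensor of Z-form nucleic acid, was at 0.471, 0.195 and 0.5399 CPM in the CP libraries, against 1.78, 2.13 and 3.75 CPM in the F/R/C libraries (log2FC -2.68 ± 0.50, edgeR adjusted p = 0.015). Tmem173, which encodes STING, was at 30.9, 29.8 and 36.9 CPM in the CP libraries, against 52.3, 56.9 and 60.9 CPM in the F/R/C libraries (log2FC -0.81 ± 0.10, edgeR adjusted p = 0.0025). Eif2ak2, the kinase PKR that double-stranded RNA activates, had a log2FC of -0.68, and Ikbke, a kinase downstream of these sensors, of -0.84. Ddx58, which encodes RIG-I, was at 13.6, 14.8 and 16.4 CPM with CP and 24.7, 19.1 and 33.5 CPM without it, without overlap, and did not pass (log2FC -0.76 ± 0.19, edgeR adjusted p = 0.057). Eif2ak2 is also in the interferon list. None of these 4 calls was kept without line 2, 1 was kept without CP library 2 and 2 without the line as a block.

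A run of neighbouring genes on chromosome 1 fell, and it was picked out here after the values were seen. Its bounds are those of the called genes. Between 173723427 and 174031810 (GRCm38), where the Ifi200 family of DNA-binding interferon-induced proteins lies, 6 genes were tested and all 6 were called lower. These were Ifi207 (-1.49), Ifi204 (-1.47), Mndal (-1.70), Ifi211 (-2.20), Ifi203 (-1.88) and Ifi205 (-1.77, each as log2FC). Ifi211, with the largest change, was at 4.21, 3.76 and 6.14 CPM in the CP libraries, against 17.9, 23.5 and 22.6 CPM in the F/R/C libraries (log2FC -2.20 ± 0.20, edgeR adjusted p = 0.00064). The members are near-identical copies of each other, so reads that kallisto divided between them make each single value uncertain. Slfn2, a Schlafen protein that restrains cell growth in lymphocytes, was at 0.917, 0.752 and 0.709 CPM in the CP libraries, against 4.33, 3.58 and 5.12 CPM in the F/R/C libraries (log2FC -2.45 ± 0.33, edgeR adjusted p = 0.0033). Over the Ifi200 and Schlafen families together 7 of 14 tested genes fell, none rose, and the median was -1.60. Ifi208 and Ifi213 of this list were tested, lie outside the run and were not called. Of the 7 calls 6 were kept without CP library 2, 5 without the line as a block and 2, those of Ifi211 and Slfn2, without line 2.

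The promoters of these genes are shown because the letters GAAANNGAAA, the core of the interferon-stimulated response element, stand in them. The windows are 30 bases of RefSeq promoters (GRCm38.p6), 5′ to 3′ on the strand of the gene, with the match in capitals.
Ifi207: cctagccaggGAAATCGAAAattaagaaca
Ifi203: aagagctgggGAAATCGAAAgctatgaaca
Mndal: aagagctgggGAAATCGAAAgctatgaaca
Ifi211: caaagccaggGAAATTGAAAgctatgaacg
Ifi205: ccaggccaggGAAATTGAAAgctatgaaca
Isg15: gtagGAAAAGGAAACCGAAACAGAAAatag
Bst2: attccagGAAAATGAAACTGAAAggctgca
Ifit1: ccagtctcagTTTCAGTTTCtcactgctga
Stat2: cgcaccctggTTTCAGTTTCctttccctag
The Ifi207 window lies at chr1:173741831-173741860, that of Ifi203 at chr1:173942508-173942537, of Mndal at chr1:173880204-173880233, of Ifi211 at chr1:173913064-173913093 and of Ifi205 at chr1:174031870-174031899, all on the minus strand. The match begins 35 to 41 bases before the annotated start of Ifi203, Mndal, Ifi211 and Ifi207 and 134 bases before that of Ifi205. The windows of Ifi203 and Mndal hold the same 30 letters. Isg15 (chr4:156200871-156200900, minus strand) holds 3 overlapping copies that begin 78 bases before its start, and Bst2 (chr8:71537580-71537609, minus strand) holds 2 that begin 130 bases before. Ifit1 (chr19:34640794-34640823) and Stat2 (chr10:128270266-128270295), both on the plus strand, hold it on the opposite strand, at 85 bases before the start of Ifit1 and 222 before that of Stat2. Ifit1, Mndal and Ifi205 each hold a second match elsewhere in the promoter.

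With both strands searched over 300 bases, 250 before and 50 after each start, GAAANNGAAA stood in the promoters of 3.71% of the 12999 tested genes that matched the RefSeq table by symbol, and in 3.44% of all 32851 promoters of that table. It stood in 25 of the 256 matched genes called lower (9.77%) and in 4 of the 169 called higher (2.37%). Of the interferon list, 24 of 48 matched genes held it (50%), and of the Ifi200 and Schlafen families 10 of 13 (76.9%). Of the 6 matched genes of these families that were called lower 5 held it, and Slfn2 did not. Socs3 and Cish hold TTCNNNGAA, the palindromic core that STAT dimers bind, which stood in 8.3% of all promoters, in 8.34% of the matched genes, in 11.7% of those called lower and in 7.69% of those called higher. Of the 11 matched genes of the STAT3 and gp130 list that were called lower 3 held it (27.3%), Serpina3g, Socs3 and Steap4. Il33, Bcl3, Pim1 and Cebpd were searched for windows too, and none was found. The windows of Socs3 and Cish are shown as the feedback genes of the pathway that fell.
Socs3: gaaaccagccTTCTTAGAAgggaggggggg
Cish: tcctggaaagTTCTTGGAAatctgtcaaag
The Socs3 window (chr11:117969501-117969530, minus strand) has its match 154 bases before the start of the gene. Cish (chr9:107296660-107296689, plus strand) holds 2 copies in the first bases of the gene, of which the second is in capitals. Bst2 and Eif2ak2 hold both cores. A match describes letters only, and binding was not measured.

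Antigen presentation by MHC class I held few calls. Of 21 tested genes 2 fell, none rose, and 20 had a negative log2FC with a median of -0.38. Psmb8, a subunit of the immunoproteasome, was at 4.91, 4.84 and 6.88 CPM in the CP libraries, against 11.2, 15.7 and 8.82 CPM in the F/R/C libraries (log2FC -1.08 ± 0.23, edgeR adjusted p = 0.03). Tap2, a peptide transporter, had a log2FC of -0.56. H2-D1, a classical class I heavy chain, was at 29.9, 28.9 and 33.9 CPM in the CP libraries, against 37.7, 42.9 and 46.3 CPM in the F/R/C libraries, and its log2FC of -0.45 lay under the threshold of 0.5 in size. Both calls were lost without CP library 2, without line 2 and without the line as a block. The interferon-induced transmembrane proteins on chromosome 7, which block virus entry and share sequence, held further calls. Ifitm1 was at 19.7, 22.6 and 21.5 CPM in the CP libraries, against 54.7, 81.8 and 52.8 CPM in the F/R/C libraries (log2FC -1.55 ± 0.12, edgeR adjusted p = 0.00044), and its neighbours Ifitm2 and Ifitm3, named here after their values were seen, had log2FC of -0.50 and -0.74. Ifitm2 lay at the threshold in size and kept its call in 4 of 22 other settings, and the call of Ifitm3 was lost without line 2.

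**Figure D3:**
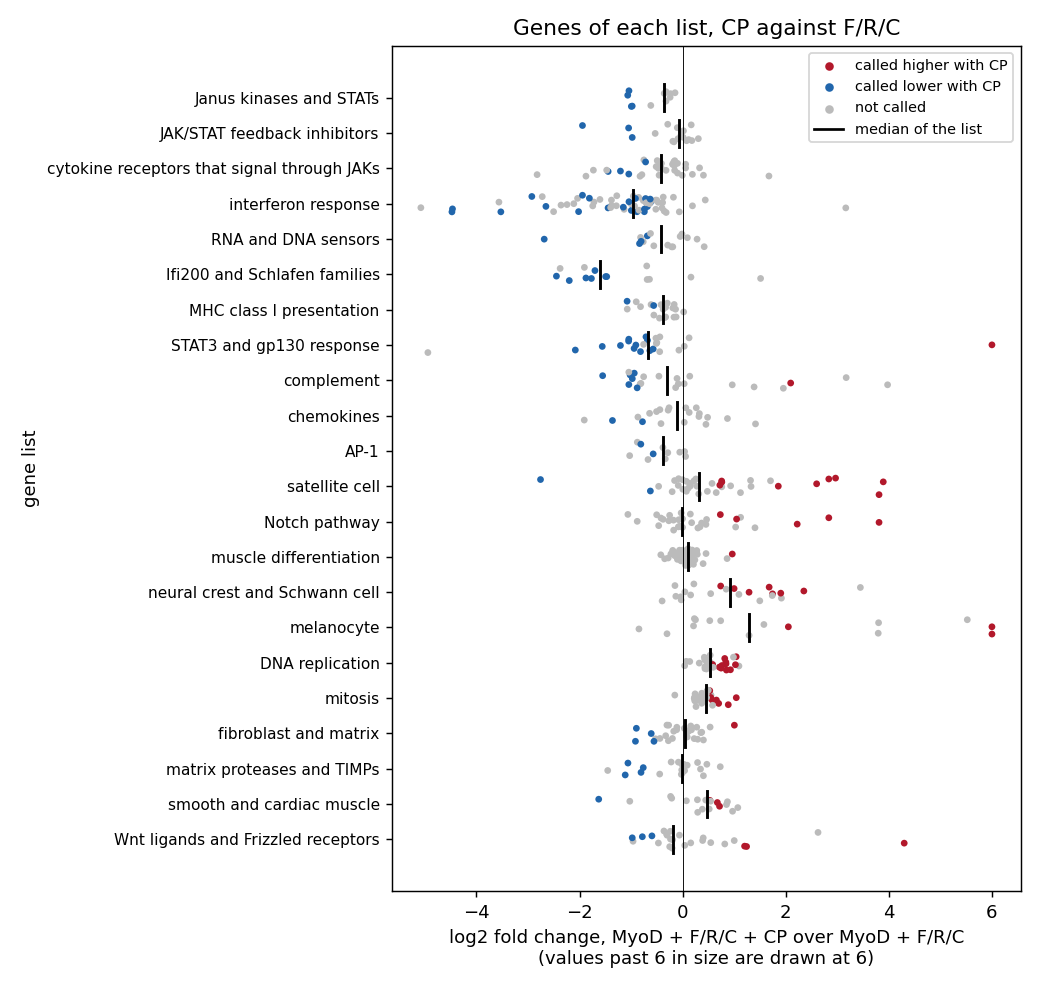
Each point is a tested gene of the list named on the y axis, at its log2 fold change of CP over F/R/C on the x axis, red if called higher, blue if called lower and grey if not called, with a bar at the median. The medians of the interferon list (-0.96), the Ifi200 and Schlafen families (-1.60) and the STAT3 and gp130 response (-0.68) lie left of 0, and those of the neural crest (0.92), melanocyte (1.29), DNA replication (0.54) and mitosis (0.46) lists right of it.

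The response to STAT3 and gp130 fell in a larger share of its genes than any other list. Of 23 tested genes 12 were called lower and 1 higher, and the median log2FC was -0.68, against -0.0049 over all genes. The list was also lower with SP, with a median of -0.51 against the same F/R/C libraries. In the test of CP against SP, 8 of the 23 were called lower with CP. Il4ra, Osmr and Socs3, described above, are 3 of the 12. Serpina3n, a secreted protease inhibitor of the acute phase, was at 10.2, 15.3 and 22.03 CPM in the CP libraries, against 36.6, 80.2 and 88.5 CPM in the F/R/C libraries (log2FC -2.08 ± 0.20, edgeR adjusted p = 0.00083). Il33, an alarm cytokine of stromal cells, was at 16.4, 23.1 and 20.2 CPM in the CP libraries, against 60.4, 51.9 and 62.8 CPM in the F/R/C libraries (log2FC -1.56 ± 0.13, edgeR adjusted p = 0.00047). Bcl3, a nuclear partner of NF-κB, was at 21.7, 31.1 and 24.9 CPM in the CP libraries, against 40.1, 60.5 and 45.3 CPM in the F/R/C libraries (log2FC -0.91 ± 0.09, edgeR adjusted p = 0.0011). No CP library reached the F/R/C range in any of the 3. Hif1a, the transcription factor of the response to low oxygen, had a log2FC of -0.71, Steap4, a metalloreductase, of -0.94, Cebpd, a transcription factor of the acute phase, of -0.68, and Pim1, a kinase, of -0.63, all called. The gene that rose against the list was Orm1, an acute phase protein of the liver, at 0.6196, 0.557 and 1.01 CPM in the CP libraries with 0 counts in all 3 F/R/C libraries, at least 27.6-fold higher against 3 counts over the group. Of the 12 calls 8 were kept without CP library 2, 7 without line 2 and 6 without the line as a block. The call of Orm1 was lost on leaving out any 1 of the 3 CP libraries or any 1 of the 3 lines, and was kept in 11 of 22 other settings. Sbno2, which is induced by IL-10 through STAT3 in macrophages, was among the 10 genes with the smallest p of those that fell, at 75.4, 101 and 93.3 CPM in the CP libraries, against 153, 183 and 202 CPM in the F/R/C libraries (log2FC -1.0 ± 0.08, edgeR adjusted p = 0.00044).

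A few neighbouring genes of protease inhibitors and kinins fell, and they were picked out here after their values were seen. The bounds given are those of the called genes. On chromosome 12, Serpina3g (-0.82), Serpina3i (-2.04) and Serpina3n were the 3 genes tested between 104236245 and 104414329 and all were called lower, though copies of this family share sequence. On chromosome 16, the 3 tested genes between 22918334 and 23082078 were Fetub (-1.76), Kng2 (-1.45) and Kng1, and all 3 fell. Kng1, which encodes the precursor of bradykinin, was at 1.31, 1.95 and 2.598 CPM in the CP libraries, against 7.65, 9.64 and 11.9 CPM in the F/R/C libraries (log2FC -2.33 ± 0.31, edgeR adjusted p = 0.0031). Both bradykinin receptors fell as well. Bdkrb1 was at 0.843, 1.48 and 2.497 CPM in the CP libraries, against 4.28, 3.501 and 4.998 CPM in the F/R/C libraries (log2FC -1.51 ± 0.34, edgeR adjusted p = 0.038) and Bdkrb2 at 23.6, 34.05 and 32.5 CPM in the CP libraries, against 49.9, 48.7 and 46.5 CPM in the F/R/C libraries (log2FC -0.70 ± 0.14, edgeR adjusted p = 0.02). Of these 8 calls those of Serpina3g, Serpina3n and Fetub were kept without line 2, and those of Serpina3n, Fetub and Kng1 without the line as a block. Those of Bdkrb1 and Serpina3i were lost without CP library 2, and that of Bdkrb1 was kept in 5 of 22 other settings.

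Part of the complement list was lower. Of 22 tested, 6 fell, 1 rose and 15 were not called. Of the 22, 8 had a positive log2FC, and the median was -0.30. Serping1, the inhibitor of C1, was at 74.6, 111 and 114 CPM in the CP libraries, against 184, 431 and 293 CPM in the F/R/C libraries (log2FC -1.55 ± 0.14, edgeR adjusted p = 0.00051). C1ra, C1s1, Masp1 and C2, proteases of the classical and lectin pathways, had log2FC of -1.04, -0.98, -0.88 and -0.94, all called. Cfd, a protease of the alternative pathway that fat cells secrete, was higher, at 3.87, 4.48 and 2.83 CPM in the CP libraries, against 0.823, 0.816 and 0.915 CPM in the F/R/C libraries (log2FC 2.10 ± 0.31, edgeR adjusted p = 0.0051). Without CP library 2, and likewise without the line as a block, 2 of the 6 calls were kept, that of Serping1 among them, and without line 2 that of Serping1 alone. The call of Cfd was lost without line 1 and without line 2. Of 20 tested chemokines 2 fell, with a list median of -0.12. Cxcl5, which attracts neutrophils, was at 37.1, 44.05 and 53.3 CPM in the CP libraries, against 103, 140.3 and 100.5 CPM in the F/R/C libraries (log2FC -1.36 ± 0.14, edgeR adjusted p = 0.00093), and Cxcl12, which holds progenitors in place through Cxcr4, had a log2FC of -0.78. The call of Cxcl12 was lost without CP library 2, without line 2, without line 3 and without the line as a block.

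Of 11 tested AP-1 genes 2 fell and none rose, with a list median of -0.38. Fosb was at 46.7, 116 and 111 CPM in the CP libraries, against 74.04, 272 and 162 CPM in the F/R/C libraries (log2FC -0.81 ± 0.12, edgeR adjusted p = 0.0053), and Junb had a log2FC of -0.57. In both genes line 2 was the highest line of either group and the groups overlapped, while each line was lower with CP. Neither call was kept without line 2 or without the line as a block. Fos and Jun, with log2FC of -0.38 and -0.29, were not called.

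Some genes of muscle stem cells rose with CP. Of the 37 genes tested from the satellite cell list 9 rose and 2 fell, against 1.29% and 1.90% of all genes, with a median log2FC of 0.31. Pax7, the defining transcription factor of these cells, was at 13.3, 14.9 and 5.803 CPM in the CP libraries, against 1.29, 0.711 and 0.305 CPM in the F/R/C libraries (log2FC 3.89 ± 0.42, edgeR adjusted p = 0.0013). Heyl, a repressor downstream of Notch that keeps satellite cells quiescent, was at 24.2, 23.9 and 10.1 CPM in the CP libraries, against 3.59, 0.5002 and 0.634 CPM in the F/R/C libraries (log2FC 3.81 ± 0.47, edgeR adjusted p = 0.0021). Hey1, which acts with it, was at 16.2, 18.1 and 6.71 CPM in the CP libraries, against 3.702, 1.61 and 0.704 CPM in the F/R/C libraries (log2FC 2.84 ± 0.41, edgeR adjusted p = 0.0045). In each of the 3 genes the lowest CP library, that of line 3, lay above the highest F/R/C library. Sox8, a transcription factor of satellite cells, was at 11.3, 9.35 and 4.15 CPM in the CP libraries, against 2.47, 0.948 and 0.704 CPM in the F/R/C libraries (log2FC 2.60 ± 0.38, edgeR adjusted p = 0.0048). Fgfr4, a growth factor receptor of myogenic progenitors, was at 39.98, 36.2 and 19.9 CPM in the CP libraries, against 7.897, 9.69 and 8.26 CPM in the F/R/C libraries (log2FC 1.86 ± 0.29, edgeR adjusted p = 0.0063). Msc, which opposes MyoD at its target sites, was at 14.6, 14.98 and 3.104 CPM in the CP libraries, against 2.08, 0.474 and 1.46 CPM in the F/R/C libraries (log2FC 2.97 ± 0.62, edgeR adjusted p = 0.025). Spry1, which restrains growth factor signals as satellite cells return to quiescence, had a log2FC of 0.76, Met, the receptor of hepatocyte growth factor, of 0.76, and Ezh2, a Polycomb methyltransferase, of 0.72, all called. The 2 genes that fell were Chrdl2, a BMP-binding protein (-2.76), and Vcam1, an adhesion molecule that cytokines also induce (-0.63). Myf5 and Pax3 were not called, with log2FC of 0.93 and 1.32. Of the 9 calls 8 were kept without CP library 2, Msc being lost, 5 without the line as a block, and 2 without line 2, those of Pax7 and Heyl. Pax7 was at 0 CPM in the 3 libraries with MyoD alone, and at 0.114, 0 and 0 CPM in untransfected MEFs, on a scale set over all 15 libraries.

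Notch genes moved in part. Of 32 tested 5 rose and none fell, but the list's median was near 0 (-0.002), close to that of all genes. Besides Heyl and Hey1, Lfng, a glycosyltransferase that modifies Notch, was at 8.43, 6.88 and 3.48 CPM in the CP libraries, against 2.002, 1.47 and 0.634 CPM in the F/R/C libraries (log2FC 2.22 ± 0.37, edgeR adjusted p = 0.0079). Jag1, a Notch ligand, was at 53.8, 42.3 and 36.1 CPM in the CP libraries, against 31.6, 19.8 and 14.6 CPM in the F/R/C libraries (log2FC 1.05 ± 0.14, edgeR adjusted p = 0.0029). Dtx4, a ubiquitin ligase that acts on Notch, had a log2FC of 0.73. Notch1 and Hes1 had log2FC of 0.45 and 0.34 and were not called, and Rbpj, the DNA-binding partner of Notch, was at 202, 178 and 169.5 CPM in the CP libraries, against 260.3, 240.0 and 256 CPM in the F/R/C libraries, a log2FC of -0.46 under the threshold in size. Of the 5 calls, 4 were kept without CP library 2, those of Heyl and Hey1 without the line as a block, and that of Heyl alone without line 2.

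Muscle differentiation genes held 1 call. Among 45 tested genes 1 rose and none fell, and the median was 0.10. Tcap, a protein of the sarcomere's Z-disc, was at 10.3, 13.3 and 10.02 CPM in the CP libraries, against 4.58, 6.397 and 6.29 CPM in the F/R/C libraries (log2FC 0.96 ± 0.20, edgeR adjusted p = 0.023), a call lost without CP library 2, without line 2 and without the line as a block. Myog, the factor that starts terminal differentiation, was at 239.8, 249 and 201 CPM in the CP libraries, against 109, 77.8 and 204 CPM in the F/R/C libraries, higher in 2 of 3 lines, and was not called (log2FC 0.86, 95% interval 0.21 to 1.51, edgeR adjusted p = 0.15). The groups overlapped through line 3. Actc1, the cardiac actin of immature fibres, and Ckm, muscle creatine kinase, had log2FC of 0.45 and -0.42.

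**Figure D4:**
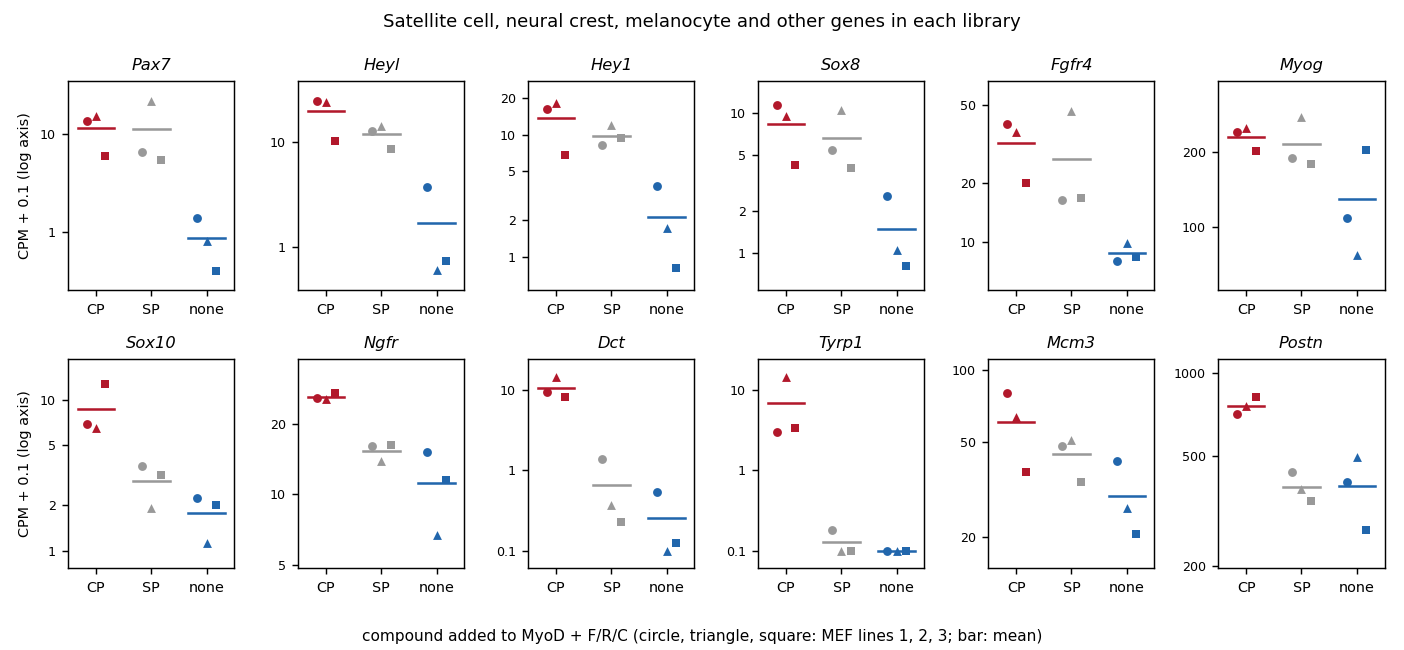
The panels show 12 genes, with CPM + 0.1 on a log axis for each library with CP, with SP or with neither added to MyoD + F/R/C (none), and a bar at the mean of 3 lines. Pax7, Heyl, Hey1, Sox8 and Fgfr4 are higher in the CP and the SP libraries than without either, while Sox10, Ngfr, Dct, Tyrp1 and Postn are higher with CP than in the other 2 groups.

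Some markers of other cells rose beside the satellite cell genes. Of 22 tested genes of neural crest and Schwann cells, which sheathe nerves, 7 rose and none fell, with a median log2FC of 0.92. Sox10, the transcription factor that defines this lineage, was at 6.84, 6.35 and 12.5 CPM in the CP libraries, against 2.14, 1.03 and 1.92 CPM in the F/R/C libraries (log2FC 2.35 ± 0.30, edgeR adjusted p = 0.0023). Ngfr, the low-affinity nerve growth factor receptor, was at 25.6, 25.5 and 26.9 CPM in the CP libraries, against 15.1, 6.63 and 11.5 CPM in the F/R/C libraries (log2FC 1.29 ± 0.20, edgeR adjusted p = 0.006). All CP libraries lay above all F/R/C libraries in these genes, and also in Foxd3, Pou3f3, Gfra1 and Erbb3, which rose by log2FC of 1.74, 1.90, 1.0 and 0.74. The summed level of the list was 486 to 604 CPM in the CP libraries and 394 to 546 CPM in the F/R/C libraries. Of the 7 calls 3 were kept without CP library 2, 3 without the line as a block and 0 without line 2.

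A few pigment cell genes were higher with CP. Dct, an enzyme of melanin synthesis, was at 9.22, 14.4 and 8.13 CPM in the CP libraries, against 0.439, 0 and 0.023 CPM in the F/R/C libraries (log2FC 6.77 ± 0.86, edgeR adjusted p = 0.0023). Tyrp1, a second such enzyme, was at 2.92, 14.4 and 3.27 CPM in the CP libraries and had 0 counts in all 3 F/R/C libraries, at least 270.5-fold higher against 3 counts over the group. Pmel, the fibril protein of pigment granules, was at 4.78, 19.4 and 8.33 CPM in the CP libraries, against 1.97, 2.896 and 2.14 CPM in the F/R/C libraries (log2FC 2.05 ± 0.35, edgeR adjusted p = 0.01). The library of line 2 was the highest in all 3 genes. Tyr, the first enzyme of the path, was at 1.04, 3.76 and 1.28 CPM with CP and 0.1097, 0 and 0 CPM without it and did not pass (log2FC 5.52 ± 1.38, edgeR adjusted p = 0.055). Mitf, the transcription factor of melanocytes, which other cells also express, was at 24.4, 17.3 and 20.3 CPM with CP and 20.4, 20.3 and 12.4 CPM without it and was not called. In all, 3 of 15 tested melanocyte genes rose and none fell, the median was 1.29, and the list summed to 149 to 172 CPM in the CP libraries and 116 to 167 CPM in the F/R/C libraries. Without CP library 2, and likewise without the line as a block, the calls of Dct and Tyrp1 were kept, and without line 2 none of the 3. The part of neural crest and pigment cells in the rise of the satellite cell genes was not tested.

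Lists of further cell types held few calls. Of 13 tested macrophage genes Lyz2, lysozyme, rose (log2FC 2.28 ± 0.37, edgeR adjusted p = 0.0075), and Ptprc, a marker of all white blood cells, had 13 counts over the 3 CP libraries and 11 over the 3 F/R/C libraries. The median of these 13 was 0.81, with 9 positive, and the list summed to 42.8 to 53.6 CPM in the CP libraries and 24.9 to 43.3 CPM in the F/R/C libraries. Of its members too low to be tested, Aif1 had 46 counts with CP and 14 counts without it, Tyrobp had 29 counts with CP and 10 without it, Ctss had 27 counts with CP and 9 without it, and Cx3cr1 had 9 counts with CP and 3 without it. Of 10 epithelial genes Krt19 rose (log2FC 0.88 ± 0.21, edgeR adjusted p = 0.042), 9 were positive, the median was 0.70, and the list summed to 68.2 to 80.9 CPM in the CP libraries and 35.4 to 57.8 CPM in the F/R/C libraries. Krt5 had 0 counts in both groups, Krt14 had 1 with CP and 0 without it, and Esrp1 had 30 with CP and 0 without it. Of 15 neuronal genes, with a median of 0.08, Map2 rose (log2FC 1.71 ± 0.27, edgeR adjusted p = 0.0064). The calls of Lyz2, Krt19 and Map2 were all lost without line 2 and without the line as a block, and that of Krt19 also without CP library 2. The part of these cell types in the results was not tested. Of 16 adipocyte genes only Cfd, given above, was called, and of 12 endothelial and 12 chondrocyte genes none.

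Some cell cycle genes rose, by moderate amounts. Of 30 tested DNA replication genes 11 were called higher and none lower, all 30 had a positive log2FC, and the median was 0.54. Ccne1, the cyclin of S phase entry, was at 62.7, 50.1 and 39.3 CPM in the CP libraries, against 27.3, 25.5 and 20.9 CPM in the F/R/C libraries (log2FC 1.04 ± 0.16, edgeR adjusted p = 0.0064). Mcm3, of the replicative helicase, was at 79.6, 63.6 and 37.1 CPM in the CP libraries, against 41.5, 26.3 and 20.3 CPM in the F/R/C libraries (log2FC 1.02 ± 0.14, edgeR adjusted p = 0.0034). Uhrf1, which maintains DNA methylation behind the fork, was at 73.6, 53.9 and 38.8 CPM in the CP libraries, against 45.5, 27.5 and 21.3 CPM in the F/R/C libraries (log2FC 0.84 ± 0.13, edgeR adjusted p = 0.0053). Line 1 was highest and line 3 lowest in either group for all 3 genes, and each line was higher with CP. Of 28 mitosis genes 7 rose and none fell, with a median of 0.46. Both lists were also higher with SP against the same F/R/C libraries, with medians of 0.42 for DNA replication and 0.31 for mitosis. No gene of either list was called in the test of CP against SP. Aurkb, a kinase of chromosome segregation, was at 31.7, 27.9 and 18.4 CPM in the CP libraries, against 18.3, 11.03 and 8.82 CPM in the F/R/C libraries (log2FC 1.04 ± 0.21, edgeR adjusted p = 0.021), and Ccna2, a cyclin of S and G2 phase, had a log2FC of 0.89. Without CP library 2, 5 of the 11 and 1 of the 7 calls were kept, and without line 2, and likewise without the line as a block, none of either. Beside these, Cdkn1c, an inhibitor of the cell cycle with imprinted expression, rose as the only one called of 10 CDK inhibitor genes, at 564, 520.4 and 380.1 CPM in the CP libraries, against 256, 242 and 192 CPM in the F/R/C libraries (log2FC 1.08 ± 0.15, edgeR adjusted p = 0.0031).

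Fibroblast genes did not move one way. Of 30 tested 1 rose and 4 fell, with a median of 0.05. Postn, a matrix protein of activated fibroblasts, was at 709, 759 and 816 CPM in the CP libraries, against 403, 497 and 268 CPM in the F/R/C libraries (log2FC 1.0 ± 0.17, edgeR adjusted p = 0.0079). Fbln1 and Fbln2, matrix glycoproteins, fell, with 373, 516 and 389 CPM with CP and 672, 1149 and 625 CPM without it for Fbln1 (log2FC -0.90 ± 0.10, edgeR adjusted p = 0.0015) and a log2FC of -0.91 for Fbln2. Pdgfra and Thy1, surface proteins of fibroblasts, had log2FC of -0.61 and -0.56, both called. The summed level of the list overlapped between the groups, as given above. Matrix proteases were lower in 4 of 20 tested genes and higher in none. Mmp19 was at 79.2, 76.8 and 85.3 CPM in the CP libraries, against 169, 187 and 167 CPM in the F/R/C libraries (log2FC -1.11 ± 0.09, edgeR adjusted p = 0.00044), and Mmp3, Mmp10 and Mmp23 had log2FC of -0.76, -1.06 and -0.81. Of these protease calls 1, that of Mmp19, was kept without line 2 and without the line as a block, and of the 5 fibroblast calls only that of Postn without the block and none without line 2.

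Lists of signals that F/R/C itself targets held some calls, where 1.29% of all genes were called higher and 1.90% lower. Of 20 tested genes responsive to cAMP 2 fell, Fosb and Pomc. Pomc, the hormone precursor, was at 1.09, 1.45 and 0.945 CPM in the CP libraries, against 12.4, 8.11 and 7.49 CPM in the F/R/C libraries (log2FC -2.97 ± 0.30, edgeR adjusted p = 0.00093), so that no CP library exceeded 1.45 CPM. Of 18 Wnt target genes Tnfrsf19, a receptor, rose (log2FC 0.88 ± 0.11, edgeR adjusted p = 0.0025), and of 25 Wnt ligands and Frizzled receptors 3 rose and 3 fell. Fzd4 (1.24), Fzd9 (1.20) and the ligand Wnt3, at 1.81, 1.31 and 1.45 CPM with CP and 0.055, 0 and 0.235 CPM without it, were higher. The call of Wnt3 was kept in 4 of 22 other settings. Wnt4 (-0.78), Wnt5a (-0.60) and Wnt16 (-0.98) were lower. Of 21 TGF-β target genes 4 rose and 2 fell, with a median near 0 (0.002). Eln, elastin, was at 133, 108 and 75.7 CPM in the CP libraries, against 70.2, 73.001 and 33.8 CPM in the F/R/C libraries (log2FC 0.88 ± 0.12, edgeR adjusted p = 0.0035), and Tgfb2, Tgfb3 and the smooth muscle actin Acta2 had log2FC of 0.66, 0.58 and 0.67. Tgfbi, a matrix protein, and Ltbp2, which resembles the proteins that hold latent TGF-β, fell, with log2FC of -0.50 and -0.65. Smooth and cardiac muscle genes held 3 that rose and 1 that fell of 18. Myh11, smooth muscle myosin, had a log2FC of 0.72 with overlap between the groups, and Gata4, a cardiac transcription factor, was at 1.39, 1.59 and 2.598 CPM in the CP libraries, against 3.32, 4.396 and 10.8 CPM in the F/R/C libraries (log2FC -1.63 ± 0.33, edgeR adjusted p = 0.021). Among these lists the calls of Pomc, Eln and Ltbp2 were kept without line 2, and those of Pomc, Tnfrsf19, Fzd4, Fzd9 and Tgfb2 without the line as a block. Tgfbi lay at the threshold in size and kept its call in 4 of 22 other settings.

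The genes with the smallest p-values and the largest changes outside these lists came from several classes. Cntn1, a cell adhesion molecule of neurons and glia, was at 63.1, 40.1 and 35.02 CPM in the CP libraries, against 18.6, 9.11 and 8.24 CPM in the F/R/C libraries and had the smallest p of all genes that rose (log2FC 1.99 ± 0.12, edgeR adjusted p = 0.00016). Spp1, osteopontin, which is secreted into the matrix, was at 554, 633 and 752 CPM in the CP libraries, against 1439, 1318 and 1761 CPM in the F/R/C libraries (log2FC -1.22 ± 0.08, edgeR adjusted p = 0.00018). Suv39h1, a methyltransferase that marks heterochromatin, was at 89.2, 80.9 and 74.7 CPM in the CP libraries, against 173, 179 and 151 CPM in the F/R/C libraries (log2FC -1.04 ± 0.09, edgeR adjusted p = 0.00044). The groups did not overlap in any of the 3 genes. Cpm, a membrane carboxypeptidase, was at 38.7, 19.99 and 24.9 CPM in the CP libraries, against 12.97, 5.32 and 9.41 CPM in the F/R/C libraries (log2FC 1.62 ± 0.14, edgeR adjusted p = 0.00044). Each line was higher with CP. Capn6, a calpain without protease activity, was at 166, 143 and 83.8 CPM in the CP libraries, against 47.5, 39.4 and 50.1 CPM in the F/R/C libraries (log2FC 1.47 ± 0.26, edgeR adjusted p = 0.011). Ren1, renin, was at 4.44, 1.11 and 1.86 CPM with CP and 0.165, 0 and 0 CPM without it (log2FC 6.69 ± 1.26, edgeR adjusted p = 0.016), at low counts, and some mouse strains carry a second renin gene of near-identical sequence. Among the largest falls were Sncb, β-synuclein, at 0.074, 0.251 and 0.304 CPM with CP and 1.7001, 3.92 and 1.67 CPM without it (log2FC -3.66 ± 0.75, edgeR adjusted p = 0.024), Drd1, a dopamine receptor, with a log2FC of -2.32, and Cplx3, a complexin, of -2.32. The call of Sncb was kept in 9 of 22 other settings and that of Ren1 in 12.

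The direct test of CP against SP, 2 inhibitors added to the same mixture, called 37 genes higher with CP (0.200%) and 144 lower (0.780%). These counts were added after the data had been seen. Without a CP library they were 18 and 70 (library 1), 19 and 84 (library 2) and 9 and 73 (library 3), without an SP library 22 and 75, 16 and 85, and 17 and 108, and without a whole line 17 and 53, 2 and 31, and 12 and 94. Without the line as a block they were 6 and 65. The interferon genes stood out in this test. Of 62 tested 38 were called lower with CP than with SP, with a median log2FC of -2.18. Against the F/R/C libraries, which both comparisons share, the list's median was -0.96 for CP and 1.07 for SP. Isg15 was at 0.5205, 0.056 and 0.607 CPM in the CP libraries, against 30.3, 22.9 and 18.2 CPM in the SP libraries (log2FC -6.07 ± 0.52, edgeR adjusted p = 0.00034). Oasl2 was at 1.88, 1.75 and 1.55 CPM with CP and 62.3, 39.6 and 25.3 CPM with SP (log2FC -4.58 ± 0.34, edgeR adjusted p = 0.00012). Usp18 was at 2.06, 1.56 and 1.96 CPM with CP and 25.4, 20.02 and 18.96 CPM with SP (log2FC -3.54 ± 0.21, edgeR adjusted p = 3.7e-05). Every CP library lay far below every SP library in these genes. H2-D1, not called against F/R/C, was called lower here (log2FC -1.18), as were 8 more of the 21 MHC class I genes.

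**Figure D5:**
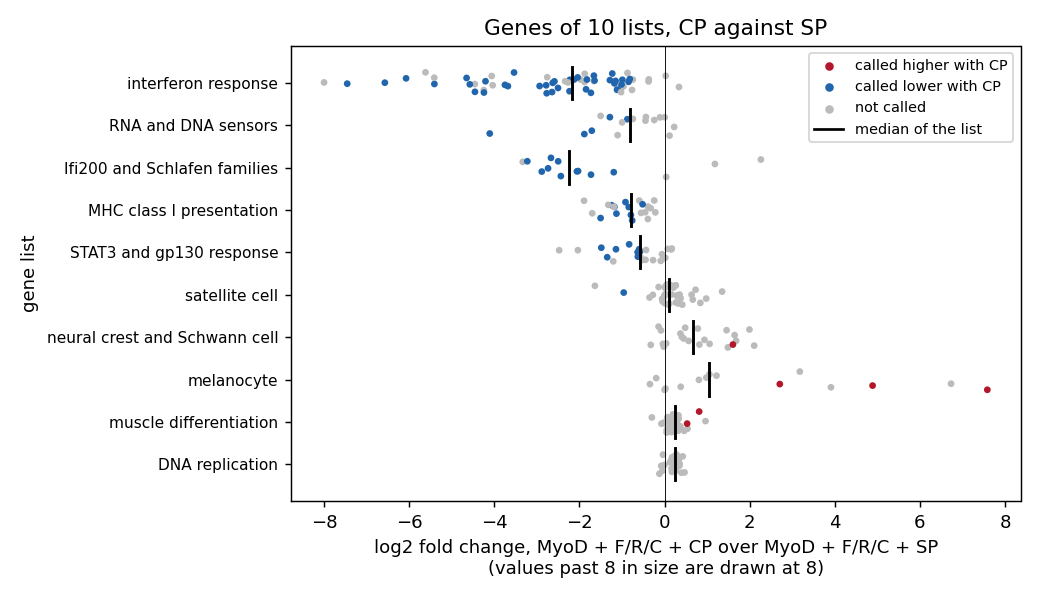
Each point is a tested gene of the list named on the y axis, at its log2 fold change of CP over SP on the x axis, red if called higher with CP, blue if called lower and grey if not called, with a bar at the median. The interferon list (median -2.18) and the Ifi200 and Schlafen families (-2.25) lie to the left, and the satellite cell list (0.11) lies near 0.

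Few satellite cell genes differed between the inhibitors by this test. None of 37 was called higher with CP than with SP and 1, Vcam1, was called lower. Pax7 was at 13.3, 14.9 and 5.803 CPM in the CP libraries and 6.34, 21.4 and 5.31 CPM in the SP libraries (log2FC 0.13, 95% interval -0.67 to 0.93, edgeR adjusted p = 0.94). Heyl was at 24.2, 23.9 and 10.1 CPM with CP and 12.6, 14.1 and 8.401 CPM with SP (log2FC 0.64, 95% interval -0.26 to 1.53, edgeR adjusted p = 0.63). The difference in Pax7 was -0.35 on the log2 scale without SP library 1. These intervals leave room for differences, so the test does not show that the inhibitors act alike. Of 15 melanocyte genes 3 were called higher with CP. Dct was at 9.22, 14.4 and 8.13 CPM with CP and 1.27, 0.266 and 0.129 CPM with SP (log2FC 4.89 ± 0.76, edgeR adjusted p = 0.012), Pmel at 4.78, 19.4 and 8.33 CPM with CP and 1.16, 1.43 and 1.802 CPM with SP (log2FC 2.71 ± 0.36, edgeR adjusted p = 0.0059), and Sox10, of the neural crest list, at 6.84, 6.35 and 12.5 CPM with CP and 3.57, 1.84 and 3.06 CPM with SP (log2FC 1.61 ± 0.29, edgeR adjusted p = 0.027). Spp1 (-0.90), Serpina3n (-1.35) and Il4ra (-0.60) were lower with CP than with SP and Postn (0.99) higher, all called. The calls of Il4ra, Serpina3n, Postn, Sox10 and Dct were lost without line 2 and without the line as a block, and those of Pmel and Tyrp1 without line 2. Without CP library 2 those of Serpina3n, Sox10, Dct and Tyrp1 were lost. Jak3 (-0.27), Socs3 (-0.45) and Pomc (-0.70) were not called.

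A list of genes that the study names in connection with CP held 54 tested genes, of which 25 were called higher and 16 lower here. That list draws on these same libraries and is not independent evidence of its own direction.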

How the data were processed

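RNA was measured in 15 libraries of mouse fibroblast cultures, of which the 9 with F/R/C entered the fit. Per the study's methods and the submitters' processing notes, poly-A RNA was prepared with a stranded kit and sequenced single-end, reads were trimmed with fastp 0.20.0, and kallisto 0.46.1 assigned them to GRCm38.p6 transcripts. The deposited values are estimated counts per transcript, in which kallisto divided reads shared between transcripts, so single genes of near-identical families are uncertain. The deposited TPM values, per the file headers, are scaled by effective length and were used only for counts rebuilt from TPM.

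Estimated counts were summed over the transcripts of each gene and rounded. Of 121843 transcripts 739 matched no gene and took 0.236 to 0.327% of the counts. The test was edgeR 4.0.16 (quasi-likelihood, TMM scaling, filterByExpr with a minimum count of 10) with condition and MEF line as terms, Benjamini-Hochberg adjustment over 18460 genes, 4 residual degrees of freedom and a common biological coefficient of variation of 0.253. Intervals are 95%. The lines pair the libraries by origin, since each line is 1 embryo. In deviations from the group means the same line correlated by 0.062 to 0.241 in 9 pairs (mean 0.138), different lines by -0.069 on average, and each of 9 libraries correlated best with another of its line. Taking deviations from means of 3 libraries largely fixes the value for different lines once that for the same line is known. It is therefore not separate support for the pairing. No 2 libraries of a group agreed within sampling noise. The code was tested on simulated data. Other settings were DESeq2 1.42.0, limma-voom (limma 3.58.1), other library sets, scalings, filters, thresholds and omissions.

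The genes named are the JAK, STAT and feedback lists, the 15 called genes with the highest and 15 with the lowest log2FC, the 10 with the smallest p in each direction, up to 6 genes of each list by p with any called against its median, genes the study names, and the 5 highest and 5 lowest for CP against SP. Not every gene so taken is described, and some are withheld and not reported here. Other list members, and the genes said to be so, were named after their values were seen. The lists and comparisons were chosen with earlier results of these data known. Promoter sequences are from RefSeq.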

Additional observations from a re-analysis of the deposited data

Results flagged for a closer look

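In 10 genes the difference between the CP and the SP libraries was among the 5 largest in either direction by the test of that difference itself. They are given as values, and their causes were not tested. Apol9b, an interferon-induced gene with a near-identical neighbour, had 0.025, 0 and 0 CPM with CP and 2.297, 1.79 and 2.38 CPM with SP (log2FC -7.46). Oas1b, of the oligoadenylate synthetases, had 0, 0 and 0.067 CPM with CP and 2.21, 2.66 and 1.67 CPM with SP (log2FC -6.57). Isg15, described above, differed by a log2FC of -6.07. Rtp4 had 0.595, 0.139 and 0.607 CPM with CP and 26.4, 14.2 and 13.9 CPM with SP (log2FC -5.41). Ifi44, an interferon-induced protein, had 0.173, 0.251 and 0.202 CPM with CP and 14.2, 3.74 and 1.64 CPM with SP (log2FC -4.65). That all CP libraries were below all SP libraries in these 5 interferon-induced genes follows from the rule that took them.

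On the other side, Tyrp1 had 2.92, 14.4 and 3.27 CPM with CP and 0.083, 0 and 0 CPM with SP (log2FC 7.58). Dct and Pmel, described above, differed by log2FC of 4.89 and 2.71. Lyz2 had 16.2, 7.41 and 10.02 CPM with CP and 3.71, 2.71 and 0.966 CPM with SP (log2FC 2.21), and Adamts17, a secreted metalloprotease, had 21.6, 18.5 and 13.5 CPM with CP and 7.17, 5.58 and 2.51 CPM with SP (log2FC 1.86). Of the 10 calls 8 were kept without the MEF line as a block, Dct and Lyz2 being lost, and 3 in the fit of all 15 libraries. Without line 2 the calls of Adamts17, Apol9b, Dct, Ifi44, Oas1b, Pmel and Tyrp1 were lost, and with limma-voom those of Dct, Ifi44 and Tyrp1.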

How the results depend on the processing

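For CP against F/R/C the counts of genes called higher and lower, 239 and 351, moved with the design more than with the tool. They were 41 and 111 with no replicate block, 19 and 72 in the 6 libraries alone with no block, 10 and 27 in all 15 libraries with the block, 0 and 7 in all 15 with no block (754 and 775 at an unadjusted p under 0.05 in edgeR), 412 and 508 with DESeq2, 546 and 594 with no filter on low counts, 78 and 139 with counts rebuilt from TPM, and 159 and 189 with the threshold of a log2FC over 1 and an unadjusted p of at most 0.01. Leaving out libraries or lines gave 18 to 315 higher and 57 to 353 lower, with the low end without MEF line 2. For CP against SP, 37 and 144, counts added after the data had been seen, they were 6 and 65 with no block, 0 and 36 in all 15 with the block (398 and 620 at an unadjusted p under 0.05 in edgeR), 0 and 38 with no block (268 and 507), 137 and 255 with DESeq2, 225 and 336 with no filter, 16 and 78 with counts rebuilt from TPM, and 2 to 54 and 31 to 179 without a library or line. The fit of all 15 libraries adds MEFs and MyoD alone, and the cause of its lower counts was not tested.

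No gene called for CP against F/R/C and named above changed its direction in any setting. Of uncalled values, the log2FC of Tyk2 was -0.26 to 0.0016 over the omissions of a library or line, the high end without MEF line 2, and that of Pax7 for CP against SP -0.35 to 0.66, below 0 without SP library 1 or line 1. With 3 lines and 4 residual degrees of freedom, small changes and genes at a few counts could not be resolved.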
